A study of Homo sapiens with 12 samples.

Results

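The genes described here are 10 regulators of the BCL2 family, which controls the mitochondrial route to apoptosis, in cells labeled U251P and U251T that received carmofur or its vehicle. The members were chosen by symbol, and all 10 of them were found among the 60107 Ensembl gene identifiers of the count table. They are the anti-apoptotic genes BCL2, BCL2L1 and MCL1, the effectors BAX and BAK1, and the BH3-only genes BID, BBC3, PMAIP1, BCL2L11 and BAD. U251 is an established human glioblastoma line, and carmofur is a small molecule that inhibits acid ceramidase, the enzyme that breaks ceramide down. The labels do not spell out the letters P and T.

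The 12 libraries fall into 4 groups of 3, namely vehicle (DMSO) and carmofur in U251P and vehicle and carmofur in U251T. In all 4 groups the cells were starved of serum for 16 h and then kept for 24 h in full medium with 10% FBS. The labels place carmofur or DMSO in those 24 h, whereas the study's own account also places carmofur in the starvation step. The study's methods speak of biological triplicates for its experiments in general, and the labels do not say whether these replicates were separate cultures, so p-values measure the spread between these libraries, which may be technical. Counts were of sequenced 3′ ends of transcripts (QuantSeq), which give about 1 tag per transcript whatever its length.

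BCL2 family proteins decide whether the outer membrane of mitochondria is opened, which releases cytochrome c and starts the caspases. The effectors BAX and BAK1 form the openings, the anti-apoptotic proteins bind and hold them back, and the BH3-only proteins sense damage or stress and either occupy the anti-apoptotic proteins or activate the effectors. Ceramide, the lipid that acid ceramidase consumes, is known as a pro-apoptotic lipid, and the members are also set by protein stability, phosphorylation and location, which RNA counts do not measure.

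What the 10 genes share in sequence is the BH3 segment, the helix through which the proteins bind one another. The stretches of 30 bases that encode its core are shown because this is the part that defines the family, and they were read from GENCODE release 29 transcripts (GRCh38). Each is written 5′ to 3′ on the coding strand, with the codons of the conserved leucine and the conserved aspartate in capitals.
BCL2: accCTCcgccaggccggcGACgacttctcc
BCL2L1: gcgCTGagggaggcaggcGACgagtttgaa
MCL1: accTTAcgacgggttgggGATggcgtgcag
BAX: tgtCTCaagcgcatcgggGACgaactggac
BAK1: cagCTCgccatcatcgggGACgacatcaac
BID: cacCTCgcccaggtcgggGACagcatggac
BBC3: cagCTGcggcggatggcgGACgacctcaac
PMAIP1: caaCTCaggagatttggaGACaaactgaac
BCL2L11: gagTTGcggcgtattggaGACgagtttaac
BAD: gagCTCcggaggatgagtGACgagtttgtg

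Between any pair of these stretches, 11 to 21 of the 30 bases were identical (median 16.0 over 45 pairs). The aspartate codon was GAC in every member but MCL1, where it was GAT, and each stretch lay within a single exon. For the 3 members that the results in U251T turn on, the stretch of BCL2L1 lay at chr20:31721925-31721954 on the minus strand in exon 2 of 3. That of BBC3 lay at chr19:47226582-47226611 on the minus strand in exon 3 of 4, and that of BCL2L11 at chr2:111150100-111150129 on the plus strand in exon 4 of 5. The counts come from the 3′ ends of these genes and not from the stretches shown, so they do not separate splice forms.

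Library depth was 3295045 to 6350873 counts in U251P, whereas U251T libraries held 383633 to 2817379 counts, so low counts are less informative in U251T. The U251T libraries also stood apart in genes that every cell uses. The summed level of 10 such genes (ACTB, GAPDH and others) was 8950 to 9990 CPM (counts scaled to the depth of the library) in the 6 U251P libraries, 1771 to 2124 CPM in U251T with vehicle and 2221 to 2291 CPM in U251T with carmofur. In the U251T libraries the glial markers S100B, SOX2, OLIG2, CHI3L1 and PTPRZ1 were at 0 with vehicle, 5 of the 13 glioma and glial markers, whereas OLIG2 and CHI3L1 were at 0 in U251P with vehicle. Of the 10 markers of that list tested between the lines with vehicle, 2 were called higher in U251T and 7 lower. Of all genes tested, 39.3% were called higher and 47.6% lower. The higher ones were GFAP at 73.3 against 0.0991 CPM and VIM at 12903 against 2885 CPM. Lower in U251T were, among others, NES at 0.642 against 406 CPM and EGFR at 3.43 against 69.5 CPM. The list, in which VIM had most of the counts, summed to 12582 to 14425 CPM in U251T and 4381 to 5224 CPM in U251P with vehicle. It summed to 8366 to 10109 CPM in U251T with carmofur. Against vehicle, 2 of its 5 genes tested in U251T were called lower and 2 higher, beside 8.2% and 8.88% of all genes tested. VIM (log2 fold change −0.67) and GFAP (−0.96) fell, whereas SOX9 rose from 140 to 203 CPM and CD44 from 601 to 788 CPM. The 5 fibroblast markers summed to 1757 to 2058 CPM in U251T with vehicle and 2314 to 2490 CPM with carmofur, against 18.4 to 20.8 CPM in U251P with vehicle. A low count in U251T therefore cannot be read as a gene that the cells do not use, and the part of these differences in the results was not tested.

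In U251P, all 10 members had counts in every library, and none passed the test for a change with carmofur. MCL1, a short-lived anti-apoptotic protein on which many tumor cells depend, was the most abundant member with vehicle, at 215 ± 21.1 CPM (SD, n = 3). PMAIP1, which encodes NOXA, a BH3-only protein that binds MCL1, followed at 139 ± 25.4 CPM. BCL2L1, which encodes BCL-XL, came next at 70.4 ± 1.89 CPM and BID, which caspase-8 cleaves into an active form, at 55.8 ± 6.46 CPM. These 4 genes had no overlap with their neighbors in the order. Below them BCL2L11, BBC3, BAD, BAX and BAK1 ran from 18.9 ± 1.60 CPM down to 8.67 ± 3.22 CPM, and each neighboring pair among these 5 overlapped. BCL2, the founding member of the family, was the lowest at 3.49 ± 0.663 CPM, from 13 to 20 counts per library.

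**Figure D1:**
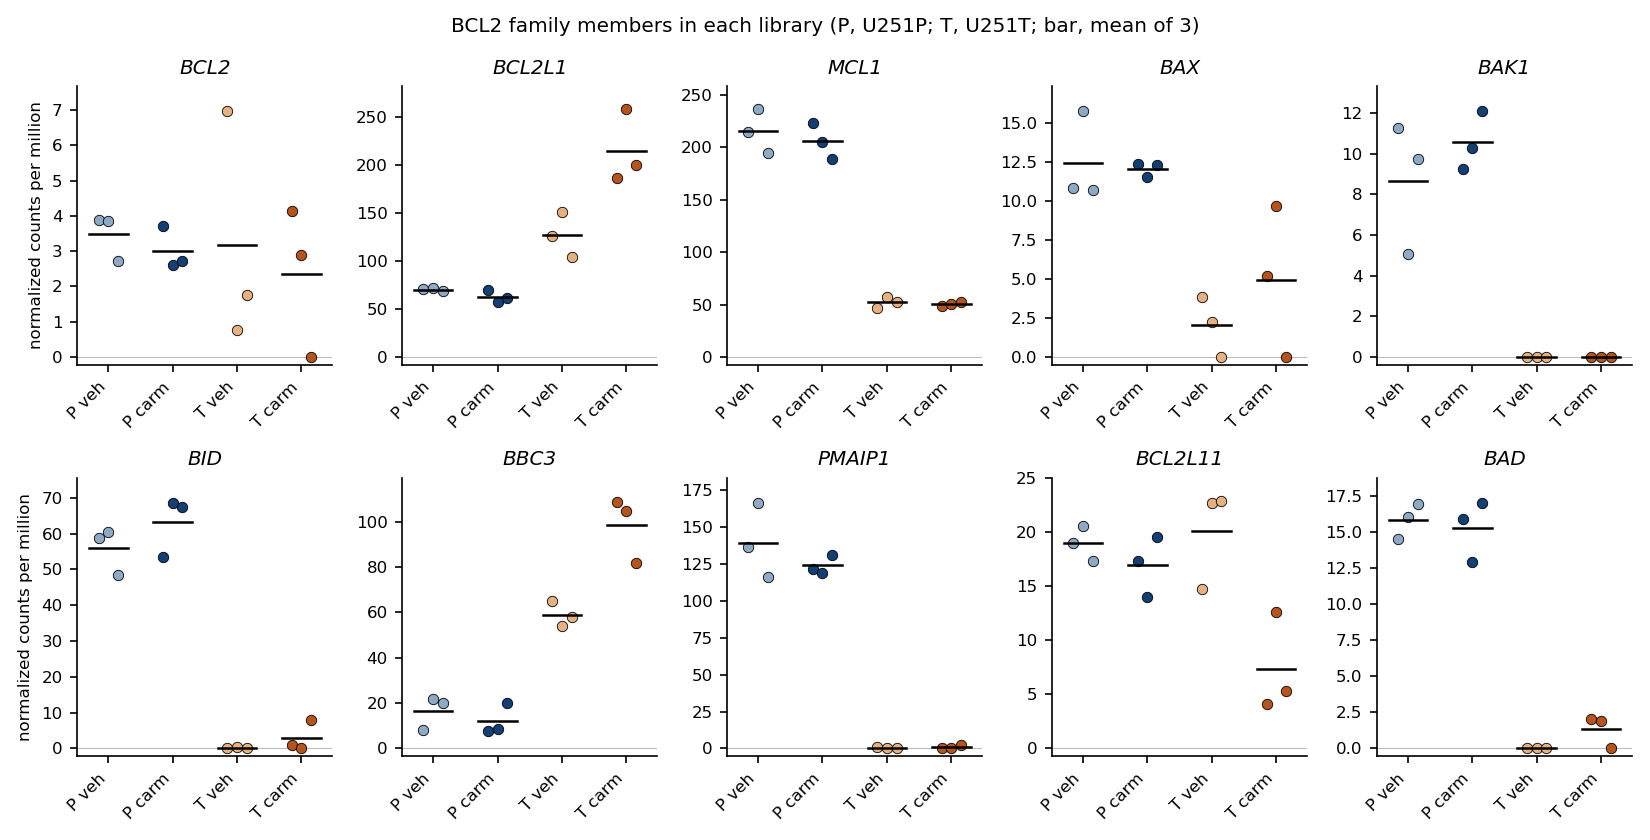
CPM of each of the 10 members in each of the 12 libraries, colored by group (3 libraries each). MCL1 and PMAIP1 were the most abundant members in U251P, whereas BCL2L1 was the most abundant in U251T, where BAK1 was at 0 in all 6 libraries.

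Among the anti-apoptotic genes, MCL1 and BCL2L1 gave narrow estimates of the carmofur effect in U251P and BCL2 did not. Counts of MCL1 in the vehicle libraries were 1106, 797 and 1001, against 1446, 1177 and 768 in the carmofur libraries. Scaled to depth, they gave 214, 237 and 195 CPM against 223, 205 and 189 CPM, and the groups overlapped. The log2 fold change of MCL1 was −0.06 (SE 0.107, 95% interval −0.29 to 0.17), with an adjusted p of 0.999 in edgeR's quasi-likelihood test. BCL2L1 stood at 70.5, 72.2 and 68.4 CPM with vehicle and at 69.9, 57.1 and 61.7 CPM with carmofur, where 1 carmofur library lay within the range of the vehicle libraries. Its log2 fold change was −0.16 (SE 0.117, 95% interval −0.41 to 0.09). BCL2 had too few counts for a narrow estimate, with a log2 fold change of −0.18 and a 95% interval of −0.97 to 0.60.

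The effectors BAX and BAK1 also overlapped between the groups in U251P. BAX, which moves from the cytosol to mitochondria when activated, had 10.9, 15.8 and 10.7 CPM with vehicle and 12.3, 11.5 and 12.3 CPM with carmofur (log2 fold change −0.02, 95% interval −0.48 to 0.44). BAK1, which resides on mitochondria, had 11.2, 5.05 and 9.72 CPM with vehicle and 9.26, 10.3 and 12.1 CPM with carmofur (log2 fold change 0.23, 95% interval −0.34 to 0.80). Its vehicle replicate 2, with 17 counts, was the lowest of the 6 libraries, and without that library the log2 fold change of BAK1 was −0.00.

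Among the BH3-only genes, BBC3 had the widest spread in U251P. BBC3 encodes PUMA, which binds every anti-apoptotic member. Its levels were 8.33, 22.0 and 19.8 CPM with vehicle and 7.56, 8.55 and 20.0 CPM with carmofur. In each group a low and a high library stood side by side, so that the groups overlapped over most of their range. The log2 fold change was −0.51 (SE 0.363, 95% interval −1.28 to 0.27), and it ran from −1.03 to −0.24 when single libraries were left out. PMAIP1 (log2 fold change −0.17), BCL2L11 (−0.17), which encodes BIM, and BAD (−0.06), which AKT phosphorylates and thereby holds inactive, also lay below 0, and BID lay above it at 0.18. The 95% intervals of all 4 crossed 0, that of BAD running from −0.45 to 0.34 and that of BCL2L11 from −0.55 to 0.22 on the log2 scale. Counts of BCL2L11 and BAD carry a further doubt, because both genes overlap a gene on the opposite strand and whether counting used strand is not stated. In the U251P libraries MIR4435-2HG, which spans BCL2L11, had 235 to 582 counts against 69 to 112 of BCL2L11, and GPR137, which overlaps BAD, had 28 to 51 counts against 54 to 103 of BAD.

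Of the 10 members, 0 had an adjusted p under 0.05 in U251P (adjusted p 0.999 for each of them in edgeR), beside 0% of the 11426 genes tested. At an unadjusted p under 0.05 there were 402 genes in all, and none of them was a member. DESeq2 called 0 members too. No member had groups that did not overlap, whereas 8.33% of all genes tested had. The log2 fold change was below 0 in 8 members and above 0 in 2, with a median of −0.11 against −0.00 over all genes tested. The signs of MCL1, BAX, BAK1 and BAD turned when 1 library or another was left out.

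In U251T, 4 of the 10 members passed the filter on low counts, and 3 of these changed with carmofur. BCL2L1 and BBC3 rose and BCL2L11 fell, whereas MCL1 did not pass the test. Beside these 3 of 4 (2 higher and 1 lower), 17.1% of the 7204 genes tested were called in this line, 8.88% higher and 8.2% lower. The groups of the 3 called members did not overlap, and 32.9% of all genes tested had groups that did not overlap.

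BCL2L1 was the most abundant member in U251T. Its counts were 163, 400 and 59 in the vehicle libraries, against 180, 268 and 76 in the carmofur libraries. Scaled to depth, it gave 126, 151 and 104 CPM with vehicle and 186, 259 and 200 CPM with carmofur, so that every carmofur library was above every vehicle library. The group levels were 127 ± 23.6 and 215 ± 38.6 CPM (SD, n = 3). The log2 fold change was 0.74 (SE 0.178, 95% interval 0.36 to 1.11), a 1.67-fold rise with an adjusted p of 0.00713 in edgeR. Leaving out carmofur replicate 2, the highest library, ended the call (log2 fold change 0.55, adjusted p 0.0599), and over all alternatives the adjusted p ran from 1.51e-06 to 0.0599.

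Counts of BBC3 in U251T were 84, 143 and 33 in the vehicle libraries, against 105, 108 and 31 in the carmofur libraries. These gave 65.0, 54.0 and 58.1 CPM against 109, 104 and 81.7 CPM, again with no overlap. Both a protector (BCL2L1) and a BH3-only gene that opposes it were thus higher, and by nearly the same factor. BBC3 had a log2 fold change of 0.77 (SE 0.198, 95% interval 0.35 to 1.19), a 1.70-fold rise with an adjusted p of 0.0111 in edgeR. The call was lost without carmofur replicate 1 (log2 fold change 0.69, adjusted p 0.0715) and in a fit of all 12 libraries (0.71, adjusted p 0.111). Its adjusted p ran from 0.000296 to 0.111 over the alternatives.

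BCL2L11, whose protein BIM activates the effectors directly, was the member that fell. Vehicle libraries held 19, 60 and 13 of its counts and carmofur libraries 4, 13 and 2, or 14.7, 22.6 and 22.9 CPM against 4.14, 12.6 and 5.27 CPM. The highest carmofur library lay just under the lowest vehicle library. The log2 fold change was −1.34 (SE 0.447, 95% interval −2.28 to −0.39), with an adjusted p of 0.0479 in edgeR that lay just under the threshold. The call was lost in DESeq2 (−1.37, adjusted p 0.110) and without each of vehicle replicate 2 (−1.18, adjusted p 0.163), vehicle replicate 3 (−1.28, adjusted p 0.0810), carmofur replicate 1 (−0.96, adjusted p 0.235) and carmofur replicate 3 (−1.23, adjusted p 0.122). Leaving out carmofur replicate 2 gave −2.14 (adjusted p 0.0132), and its adjusted p ran from 0.0120 to 0.235 over all alternatives. The direction held in every alternative that gave BCL2L11 a value. MIR4435-2HG, the overlapping gene, had 0 to 5 counts in each U251T library.

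Counts of MCL1 in U251T were 60, 151 and 30 in the vehicle libraries, against 47, 52 and 20 in the carmofur libraries. At 46.4, 57.0 and 52.8 CPM against 48.6, 50.3 and 52.7 CPM, the groups overlapped fully. Its log2 fold change was −0.06 (SE 0.219, 95% interval −0.52 to 0.40, adjusted p 0.891 in edgeR), which leaves room for a change of moderate size either way.

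**Figure D2:**
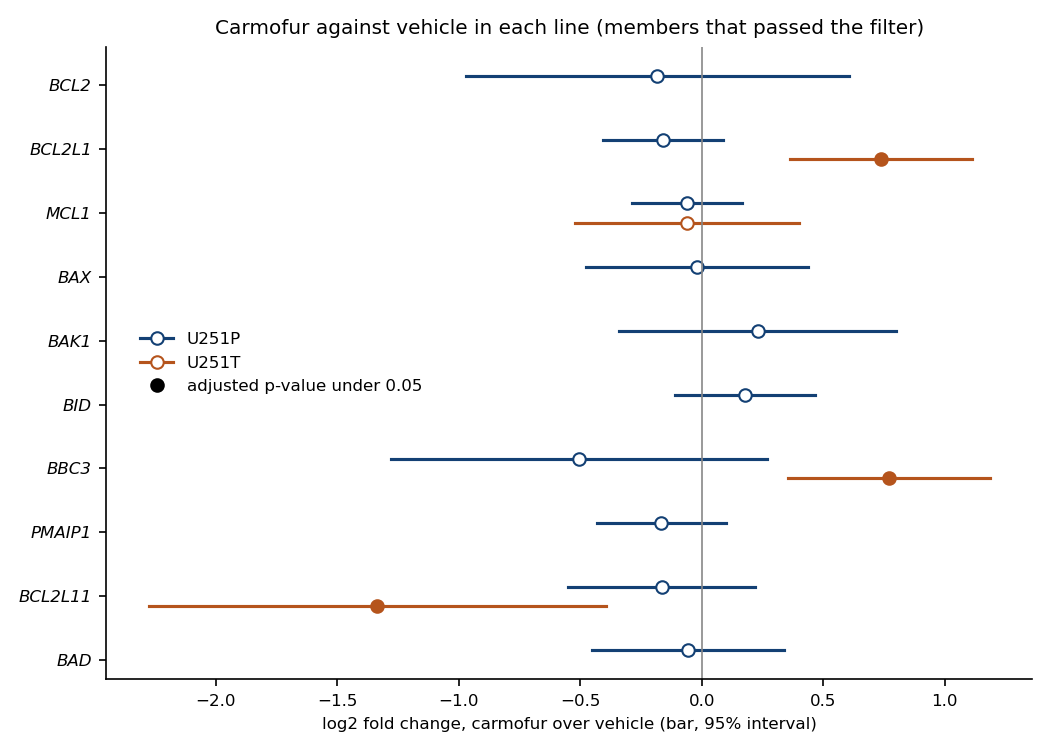
Log2 fold change of carmofur over vehicle for each member in U251P and, where the member passed the filter, in U251T, with 95% intervals from edgeR; filled points have an adjusted p under 0.05. The 10 intervals of U251P cross 0, and those of BCL2L1 and BBC3 (above 0) and of BCL2L11 (below 0) in U251T do not.

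The other 6 members were close to the limit of detection in U251T and were not tested. BCL2 counts were 9, 2 and 1 in the vehicle libraries against 4, 3 and 0 in the carmofur libraries, and those of BAX were 5, 6 and 0 against 5, 10 and 0. BID had 1 count over the vehicle libraries and 4 over the carmofur libraries, PMAIP1 had 1 in each group, BAD had 0 and 4, and BAK1 had 0 in every library. With no filter on low counts, the adjusted p of these members was between 0.256 (BAD) and 0.948 (BCL2), and BAK1 could not be fitted. At these counts, a fall or a small rise in them could not have been detected.

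**Figure D3:**
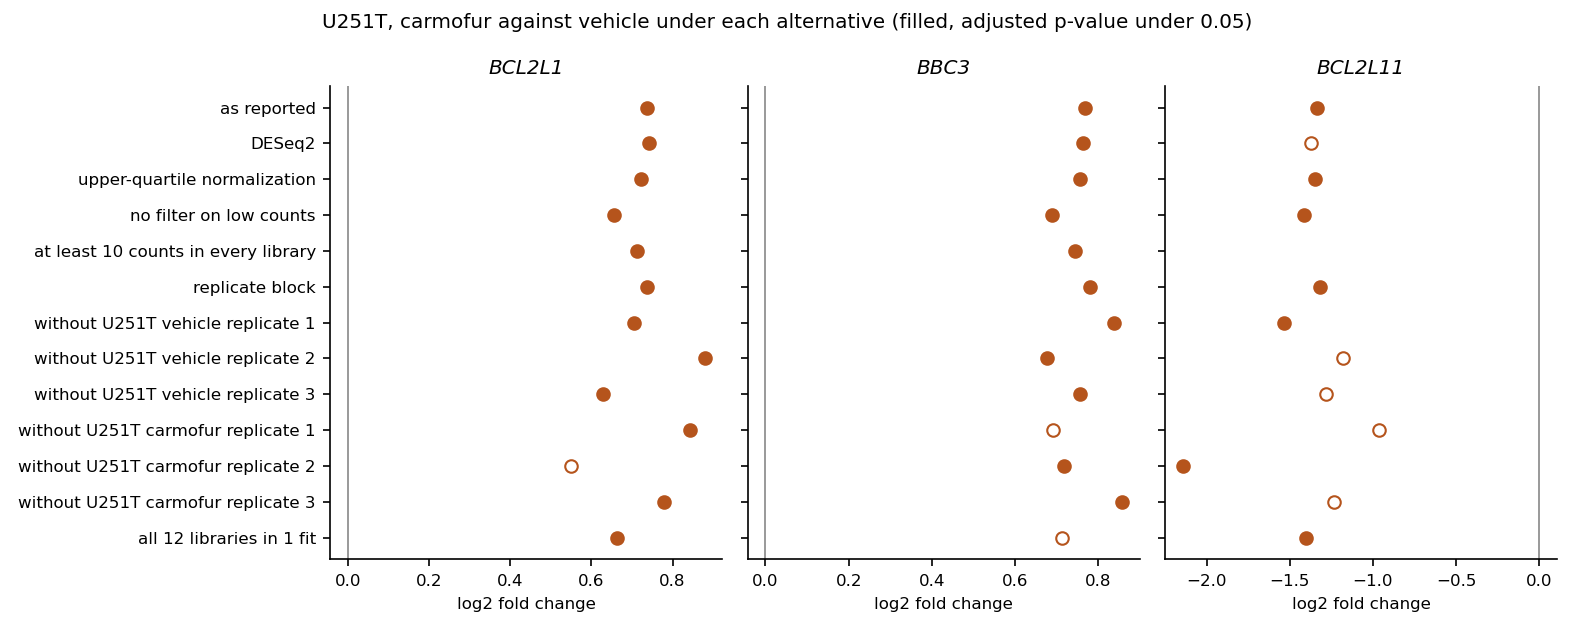
Log2 fold change of BCL2L1, BBC3 and BCL2L11 in U251T under each alternative, including each library left out in turn. Filled points have an adjusted p under 0.05. BCL2L1 and BBC3 stay above 0, and BCL2L11 stays below 0 in every alternative that gave it a value.

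Because both compared genes are counted in the same library, a ratio of their counts does not depend on the scaling of libraries. In U251P, MCL1 had 3.04, 3.28 and 2.84 counts for each count of BCL2L1 with vehicle and 3.19, 3.60 and 3.07 with carmofur, which overlapped. In U251T the ratio was 0.368, 0.378 and 0.508 with vehicle and 0.261, 0.194 and 0.263 with carmofur, so that every carmofur library was lower. An exact permutation test of 3 libraries against 3 cannot give a two-sided p under 0.1, and no p is given for these ratios. The ratio of BBC3 to BCL2L11, a pair of BH3-only genes, was 4.42, 2.38 and 2.54 in U251T with vehicle and 26.2, 8.31 and 15.5 with carmofur, again without overlap. In U251P it was 0.439, 1.07 and 1.15 against 0.438, 0.613 and 1.03. The ratio of BCL2L1 to BBC3, the pair that rose together, was 2.18 ± 0.544 with vehicle and 2.22 ± 0.435 with carmofur in U251T (SD, n = 3), which overlapped. These ratios were chosen with the changes of these genes known and describe them in another form.

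**Figure D4:**
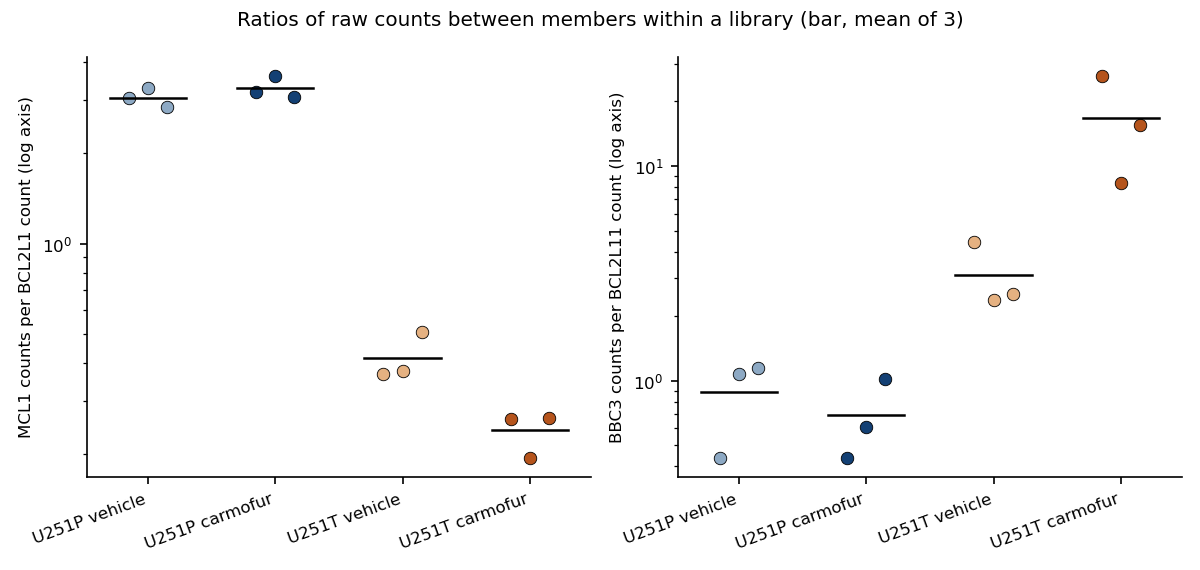
Counts of MCL1 per count of BCL2L1 (left) and of BBC3 per count of BCL2L11 (right) in each library, on log axes; the bar is the mean of 3. In U251T the carmofur libraries lie below the vehicle libraries on the left and above them on the right, and in U251P the groups overlap in both.

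As shares of all counts of the 10 members, the anti-apoptotic genes held 52.0 ± 1.24% with vehicle and 51.7 ± 3.96% with carmofur in U251P, and 68.9 ± 3.24% and 69.8 ± 3.04% in U251T (SD, n = 3). The BH3-only genes held 44.2 ± 1.64% and 44.0 ± 3.69% in U251P and 30.4 ± 3.55% and 28.99 ± 2.80% in U251T. The effectors held 3.82 ± 0.393% and 4.30 ± 0.270% in U251P and 0.751 ± 0.734% and 1.21 ± 1.11% in U251T. The class shares overlapped between vehicle and carmofur in both lines.

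Whether carmofur acted differently on a member in U251T than in U251P was tested by the interaction of line and treatment over all 12 libraries. Only BCL2L1, BBC3, BCL2L11 and MCL1 had enough counts in both lines for this test to say anything, and the other 6 entered it through their counts in U251P. None of the 4 passed in edgeR, beside 4.28% of the 13070 genes tested. In DESeq2 1 of the 4 passed, where 402 of all genes were called higher and 396 lower. BCL2L1 came nearest, with a difference in log2 fold change of 0.82 (SE 0.252, 95% interval 0.31 to 1.33, adjusted p 0.0556 in edgeR). BCL2L1 passed in 7 of 18 alternatives, among them DESeq2, and its adjusted p ran from 0.000699 to 0.249. BBC3 had a difference of 1.21 (SE 0.405, 95% interval 0.39 to 2.04, adjusted p 0.0877) and BCL2L11 of −1.25 (SE 0.462, 95% interval −2.18 to −0.31, adjusted p 0.142). MCL1 differed by −0.08 (95% interval −0.60 to 0.44). At an unadjusted p under 0.05, BCL2L1, BBC3 and BCL2L11 passed, and so did BAD, on 4 counts with carmofur and 0 with vehicle in U251T. The changes in U251T were therefore not shown to be particular to that line.

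With vehicle alone, the members differed widely between the lines, as did most genes. U251T against U251P gave 8 of 10 members an adjusted p under 0.05, 2 higher and 6 lower, beside 86.9% of the 12047 genes tested (39.3% higher and 47.6% lower). Of the 6 lower calls, 5 were of genes with too few counts in U251T for the filter (BAX, BAK1, BID, PMAIP1 and BAD), so the count is given with no reading. The median log2 fold change of all genes tested was −0.33. MCL1 was lower in U251T by every scaling (log2 fold change −2.11, SE 0.158, and −2.88 to −2.07 over the alternatives). BBC3 was higher in U251T by every scaling (1.75, SE 0.260, and 0.98 to 2.92 over the alternatives). BCL2L1 was higher at a log2 fold change of 0.81 (SE 0.155), but not with scaling factors taken from genes with at least 10 counts in all 12 libraries (0.04, adjusted p 0.794), nor when only genes with at least 10 counts in every library were kept (0.18, adjusted p 0.275). BCL2 (−0.38) and BCL2L11 (0.01) did not pass, and the sign of BCL2L11 changed with the scaling. Of the 59 tested genes of the other pathway lists, 52 differed between the lines.

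BCL2, BAX, BAK1, BID, PMAIP1 and BAD passed the filter of that comparison only through their counts in U251P, and the counts themselves are given here. BCL2 had 47 counts over the 3 U251P vehicle libraries and 12 over those of U251T, and BAX had 164 and 11. BAK1 had 125 counts over the 3 U251P vehicle libraries and 0 over those of U251T. With a floor of 3 counts over the group in place of 0, it was 14.3-fold lower in U251T. The 95% counting interval of that ratio, taken at 0 counts, started at 11.5. BAD had 216 and 0 counts, 24.8-fold lower with the same floor, and its interval started at 20.0. BID had 755 counts against 1, and PMAIP1, the second most abundant member in U251P, had 1855 against 1. The ratio of U251P to U251T was 260 for BID (95% counting interval 46.5 to 10267) and 638 for PMAIP1 (114 to 25206). Genes that every cell uses were lower in U251T as well, 9 of 10 of them at an adjusted p under 0.05 in edgeR. Of all genes tested, 47.6% were called lower. The log2 fold changes of these 10 genes ran from −9.60 to 0.15. Among them, B2M had 22770 counts over the 3 U251P vehicle libraries and 10 over those of U251T. Falls as large as those of BID and PMAIP1 were thus not confined to the members, and their cause was not tested.

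The neighboring genes of the pathway were read from 5 lists with 69 genes. In U251P, 0 of the 61 genes tested from these lists passed the test with carmofur in edgeR or DESeq2, and 1 had an unadjusted p under 0.05 in edgeR. In U251T, 2 of 3 tested of the 13 other BCL2 family genes rose, beside the 8.88% of all genes tested that rose in this line. They were BNIP3L, a receptor for the removal of mitochondria (log2 fold change 1.61, SE 0.241, adjusted p 0.000138 in edgeR), and BCL2L13, a family member of the outer mitochondrial membrane (1.06, SE 0.299, adjusted p 0.0204). The call of BCL2L13 was lost without vehicle replicate 2 (adjusted p 0.111), carmofur replicate 1 (0.0557) or carmofur replicate 3 (0.0717). The median of these 3 genes was 1.06 against 0.01 over all genes tested.

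In the execution machinery downstream of the members no gene was called with carmofur in either line. Of 18 genes for cytochrome c, caspases, their inhibitors and mitochondrial channels, 10 were tested in U251T. None of these 10 passed in edgeR or DESeq2, beside 17.1% of all genes tested in edgeR, and 10 genes are few to set against that share. Their median log2 fold change was −0.00, and 1 gene had an unadjusted p under 0.05 in edgeR. That gene was CASP2, a caspase of the damage response (log2 fold change −1.03, adjusted p 0.0586 in edgeR), which passed in 3 of 11 alternatives and in the test of the difference between lines (adjusted p 0.0351). The death receptor pathway, which reaches the family through BID, had 0 of 10 genes with enough counts in U251T, and its 9 tested genes in U251P gave 0 calls.

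A further list of 12 genes held transcription factors set upstream of the family, together with CDKN1A and MDM2, which are not transcription factors. Of the 9 tested in U251T, 3 rose and 1 fell, beside 8.88% and 8.2% of all genes tested. CDKN1A, an inhibitor that stops the cell cycle, had 49.5, 32.5 and 24.6 CPM with vehicle and 155, 141 and 206 CPM with carmofur (log2 fold change 2.16, SE 0.234, adjusted p 4.95e-06 in edgeR). MDM2, a ubiquitin ligase, had 722, 520 and 786 CPM against 1254, 1337 and 1226 CPM (0.92, SE 0.146, adjusted p 0.000238). DDIT3, a transcription factor of the unfolded protein response, had 19.3, 13.2 and 21.1 CPM against 33.1, 27.1 and 55.4 CPM (1.08, SE 0.339, adjusted p 0.0344). The call of DDIT3 was lost in 6 of 12 alternatives, among them DESeq2 (adjusted p 0.0549), the fit of all 12 libraries (0.0724) and the fits without vehicle replicates 1 or 2 or carmofur replicates 1 or 3. E2F1, which drives entry into S phase, had 292, 339 and 232 CPM against 127, 102 and 97.5 CPM (−1.40, SE 0.175, adjusted p 2.5e-05). In these 4 genes every carmofur library lay on the same side of every vehicle library. Separation of this kind was seen for 6 genes among the 9 tested from this list. Among all 7204 genes tested in U251T, 32.9% showed it too. The 4 genes are named because they were called, so their separation is not independent support for the calls. The same 4 genes had log2 fold changes of −0.26 to 0.24 in U251P, none of them called.

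Among 16 genes that act on BCL2 family proteins, 15 were tested in U251T and 2 rose, a share near the 8.88% of all genes tested. GSK3B, a kinase that marks MCL1 for degradation, had a log2 fold change of 1.04 (SE 0.144, adjusted p 6.17e-05 in edgeR). FBXW7, a ligase subunit that recognizes MCL1, had one of 1.45 (SE 0.220, adjusted p 0.000145). MCL1 counts themselves gave no call, and MCL1 protein was not measured in these data. The 3 YWHA adaptors that hold BAD were among the 13 that did not pass.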

How the data were processed

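Messenger RNA was measured by 3′ RNA-sequencing (QuantSeq FWD kit) in 12 libraries. The authors trimmed and mapped the reads with Lexogen's BlueBee pipeline. The submitters' processing notes name hg38, and the counting tool, annotation release and use of strand are not given in the sources used here. The deposited values are whole-number counts per Ensembl gene, not normalized. Libraries were grouped by their titles, which name line, treatment and replicate.

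Counts were tested with edgeR (version 4.0.16) in R (version 4.3.3) by its quasi-likelihood test, with TMM scaling, the filterByExpr filter and Benjamini-Hochberg adjustment over all genes tested at 0.05. Carmofur was compared with vehicle in the 6 libraries of each line, the difference between lines as an interaction in 12 libraries, and the lines in the 6 vehicle libraries. CPM were scaled by TMM within each line, so levels set across lines rest on separate scaling. SE is the log2 fold change over the square root of the F statistic. Ratio intervals cover counting error only. Positions are from GENCODE release 29 (GRCh38). DESeq2 (version 1.42.0), other scaling, filters, thresholds, a replicate block and libraries left out in turn were alternatives. Scripts were tested on simulated data. Figures were made with matplotlib (version 3.10.9) in Python (version 3.11.15).

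The members and lists were chosen with earlier results of these data known. All 10 members are named. Of the other lists a gene is named if its adjusted p was under 0.05 in a carmofur comparison or in the difference between lines, and ATF4 in the closing section was chosen after its values were seen. Marker genes are given as ranges, genes at 0 by name, and some others by name with their levels. Some genes of the lists are counted but not reported by name here.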

Additional observations from a re-analysis of the deposited data

Results flagged for a closer look

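The difference of the carmofur effect between U251T and U251P had its own test (the interaction of line and treatment in edgeR, adjusted p under 0.05). None of the 10 BCL2 family members passed. Of the 61 tested genes of the pathway lists around them 8 passed, beside 4.28% of the 13070 genes tested. The differences in log2 fold change, U251T minus U251P, were 1.16 for BCL2L13, 1.90 for BNIP3L, 2.09 for CDKN1A, 0.91 for MDM2, 0.92 for GSK3B and 1.48 for FBXW7. They were −1.71 for E2F1 and −1.30 for CASP2. In U251T alone, CASP2 had 27.9, 27.9 and 17.6 CPM with vehicle and 10.3, 11.6 and 18.4 CPM with carmofur (log2 fold change −1.03, adjusted p 0.0586), where 1 carmofur library lay above 1 vehicle library. The call of CASP2 was lost in 9 of 17 alternatives (adjusted p up to 0.162), that of GSK3B in 5 of 18 and that of BCL2L13 in 2 of 18, whereas BNIP3L, CDKN1A, MDM2, FBXW7 and E2F1 kept theirs in all 18. U251T libraries were shallower and lower in genes that every cell uses, and the part of this in the differences was not tested.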

How the results depend on the processing

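The calls rest on few libraries and low counts, chiefly in U251T. In U251P no member was called under any alternative, while the count over all genes was 19 with no filter, 1 with the replicate block and 0 to 1 with single libraries left out (1 without carmofur replicate 3). Deviations from the group mean had correlations of −0.03 to 0.33 between same-numbered libraries and −0.30 to 0.10 between differently numbered ones. The labels give replicate numbers without saying that they pair samples. The main fits used no pairing, and whether the numbers pair samples was not settled. The block raised the calls over all genes to 2078 in U251T and to 1156 for the difference between lines. In U251T 1 to 3 members were called with single libraries left out, 1 without carmofur replicate 1. For the difference between lines, 1 member was called with DESeq2, upper-quartile scaling, at least 10 counts in every library and common-gene scaling, and 2 with no filter, at an adjusted p under 0.1 and with the replicate block. Left-out libraries gave 0 to 1 member and 367 (without U251T carmofur replicate 1) to 721 genes. Between the lines, at least 10 counts in every library left 3 members and 3737 genes called, and common-gene scaling, chosen after seeing the data, moved the median of all genes by −0.76 and the calls from 4736 higher and 5738 lower to 3616 and 7002. DESeq2 moved that median by −0.12, no filter by −0.36 and at least 10 counts by −0.63. Signs turned in some results that were not called in the report. For BCL2L11 between lines the log2 fold change was −0.12 with DESeq2, −0.061 with upper-quartile scaling, −0.35 with no filter, −0.63 with at least 10 counts, −0.028 with the block, −1.29 in the carmofur libraries and −0.76 with common-gene scaling, and it passed the test in 3 of these (at least 10 counts, carmofur libraries and common-gene scaling). For BAK1 in the difference between lines it was 0.54 with DESeq2, a value with no content because BAK1 had 0 counts in U251T. With libraries left out, the ranges that crossed 0 were −0.13 to 0.012 for MCL1, −0.12 to 0.16 for BAX, −0.0039 to 0.45 for BAK1, and −0.13 to 0.054 for BAD in U251P, and −0.15 to 0.023 for MCL1 in U251T. In the difference between lines they were −0.68 to 1.65 for BCL2, −0.16 to 0.058 for MCL1 and −2.50 to 3.52 for PMAIP1, and between lines −1.90 to 0.42 for BCL2 (called without U251T vehicle replicate 1, adjusted p 0.0274) and −0.28 to 0.17 for BCL2L11. The causes were not tested.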

Other observations

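In U251P the spread of BBC3 went across the treatment groups. The 3 libraries with the most BBC3 were vehicle replicates 2 and 3 and carmofur replicate 3, at 22.0, 19.8 and 20.0 CPM, while the other 3 had 7.56 to 8.55 CPM. The same 3 libraries had the most DDIT3, at 27.6, 34.6 and 28.4 CPM against 13.8 to 21.3 CPM in the others, and the most CDKN1A, at 21.1, 30.5 and 29.8 CPM against 12.01 to 17.98 CPM. The same 3 libraries were the highest for ATF4, a transcription factor of the stress response, with 444, 463 and 396 CPM against 193 to 241 CPM. BNIP3L had 52.6, 55.2 and 54.3 CPM in these 3 libraries and 27.8 to 34.3 CPM in the others. These genes were chosen after their values were seen, and no test was made.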
